A study of Mus musculus with 2 samples.

Results

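The CXC chemokines are small secreted proteins that attract leukocytes, and 9 of their mouse genes were followed here among the 55536 genes measured. They were chosen by symbol: 4 neutrophil-attracting genes with the ELR motif (Cxcl2, Cxcl1, Cxcl3 and Cxcl5), 3 interferon-induced genes (Cxcl10, Cxcl11 and Cxcl9) and 2 others (Cxcl16 and Cxcl14). RNA came from the nucleoplasm, a fraction of the nucleus, of macrophages grown from the bone marrow of C57BL/6J mice, and ribosomal RNA was removed before sequencing. The cells received Lipid A, the lipopolysaccharide moiety that TLR4 senses, at 100 ng/ml for 12 h, then stood without it for 12 h, then received the same dose again for 40 min. Both libraries belonged to that 1 group, so the values are levels in restimulated cells and no change from an untreated or singly treated state could be measured. The RNA input was 1 µg for library 1 and 500 ng for library 2. Both had the same donor entry, and sex and age were not collected, so the spread between them may be technical.

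In CXC chemokines a single residue separates the first pair of cysteines. Those with glutamate, leucine and arginine just before that pair, the ELR motif, act on the receptor Cxcr2 and draw neutrophils, and in macrophages TLR4 induces them through NF-kB. Cxcl9, Cxcl10 and Cxcl11 lack the motif, act on Cxcr3 of activated T cells and natural killer cells, and are induced by interferons. Cxcl16 is made as a membrane protein that Adam10 can release and binds Cxcr6, and Cxcl14 is mainly known from epithelia.

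The libraries held 19797829 expected counts on named genes in library 1 and 17213606 in library 2, of which the 9 chemokine genes took 0.170% and 0.161%. Mitochondrial genes took 2.63% of the counts in library 1 and 6.60% in library 2, and their part in any result below was not tested. All 8 macrophage markers were detected, with a summed level of 3116 and 2480 TPM in libraries 1 and 2, where TPM is a level scaled for transcript length and library size. Of 10 neutrophil markers only Mmp8 was detected; the list summed to 2.19 and 3.35 TPM, with Ly6g, Elane, Camp and Retnlg at 0. Of the other marker lists, T cell had 1 of 5 detected (Cd4 at 21.4 ± 2.24 TPM, with Cd3e and Trbc1 at 0), endothelial 2 of 4 (Kdr at 11.2 ± 2.28 TPM and Pecam1 at 1.54 ± 0.566 TPM) and dendritic cell 3 of 5, which summed to 2.30 and 1.82 TPM (SD, n = 2 each). None of the B cell, natural killer cell, fibroblast, epithelial or megakaryocyte markers was detected. Over all protein-coding genes, 49.9% were detected.

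The family was dominated by 1 gene of each kind, Cxcl2 of the ELR genes and Cxcl10 of the interferon-induced genes, at similar levels. Together they made up 87.5% of the family's summed TPM in library 1 and 86.1% in library 2. Detection required at least 10 expected counts in each library, and 6 of the 9 members passed, in a table where 49.9% of protein-coding genes did. By mean TPM, Cxcl2, Cxcl1, Cxcl10 and Cxcl16 were among the highest 10% of the protein-coding genes that passed. In library 1 alone Cxcl1 was not. Cxcl3, Cxcl5 and Cxcl14 did not pass.

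The sequences upstream of Cxcl2, Cxcl1, Cxcl3, Cxcl10 and Cxcl9 are shown so that the motif matches described below can be read in place. Whether any of these elements goes with the RNA level of a gene was not tested. RefSeq promoters of build GRCm38.p6 were found for 6 of the 9 genes; Cxcl5, Cxcl11 and Cxcl16 are named only. Each line gives the 250 bases before the RefSeq start, read 5′ to 3′ on the strand of the gene. Capitals mark matches, on either strand and with overlapping matches merged, to a kB-like motif (GGG and TCC with 4 bases of any kind between) or to an interferon-stimulated response element (ISRE)-like motif (GAAA and GAAA with 2 bases of any kind between).
Cxcl2 promoter, chr5:90903649-90903898, plus strand: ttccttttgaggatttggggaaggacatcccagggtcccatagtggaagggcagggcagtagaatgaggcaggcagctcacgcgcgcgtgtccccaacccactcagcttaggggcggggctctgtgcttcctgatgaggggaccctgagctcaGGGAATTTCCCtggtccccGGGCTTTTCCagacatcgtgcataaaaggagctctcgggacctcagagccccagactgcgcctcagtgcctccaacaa
Cxcl1 promoter, chr5:90890995-90891244, plus strand: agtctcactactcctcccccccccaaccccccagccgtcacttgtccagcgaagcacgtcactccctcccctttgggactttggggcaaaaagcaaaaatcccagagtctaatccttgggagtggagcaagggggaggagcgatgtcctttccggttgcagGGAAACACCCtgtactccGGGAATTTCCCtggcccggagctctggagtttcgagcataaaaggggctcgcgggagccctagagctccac
Cxcl3 promoter, chr5:90785851-90786100, plus strand: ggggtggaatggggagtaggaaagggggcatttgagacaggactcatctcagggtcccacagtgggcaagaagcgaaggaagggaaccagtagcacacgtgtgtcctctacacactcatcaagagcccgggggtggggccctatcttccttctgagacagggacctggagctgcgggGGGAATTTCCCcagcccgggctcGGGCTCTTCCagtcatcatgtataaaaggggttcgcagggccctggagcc
Cxcl10 promoter, chr5:92348890-92349139, minus strand: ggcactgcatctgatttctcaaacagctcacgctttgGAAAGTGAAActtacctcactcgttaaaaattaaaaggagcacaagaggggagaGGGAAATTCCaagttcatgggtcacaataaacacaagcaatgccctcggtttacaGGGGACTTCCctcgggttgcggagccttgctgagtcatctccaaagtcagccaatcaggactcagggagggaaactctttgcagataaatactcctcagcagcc
Cxcl9 promoter, chr5:92328080-92328329, minus strand: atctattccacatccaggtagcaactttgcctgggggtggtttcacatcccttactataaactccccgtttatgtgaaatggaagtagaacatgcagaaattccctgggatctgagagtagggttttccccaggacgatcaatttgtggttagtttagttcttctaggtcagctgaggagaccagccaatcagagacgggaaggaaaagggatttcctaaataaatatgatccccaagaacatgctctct

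The longest run of bases that all 3 ELR promoters shared was the 11 bases GGGAATTTCCC, which has the form of a site that NF-kB dimers can bind. It spanned bases -97 to -87 from the RefSeq start in Cxcl2, -71 to -61 in Cxcl1 and -73 to -63 in Cxcl3. The annotated Cxcl2 gene begins at chr5:90903871, inside the window shown, so distances in Cxcl2 depend on the start used. In each promoter the run consists of a kB-like match on the plus strand and one on the minus strand that overlap by all but 1 base. Of 32851 RefSeq promoters of the same length, from 27025 genes, 14 (0.0426%) held the run on either strand, and 16.5% held a kB-like match. The 14 include these 3 ELR promoters. A further kB-like match lay 3′ of the run in Cxcl2 and Cxcl3 and 5′ of it in Cxcl1. The run was picked because these 3 promoters share it, so its presence in them is not a result.

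The Cxcl10 promoter held an ISRE-like match at -213 to -204 and kB-like matches at -159 to -150 and -104 to -95. It also held the letters TGANTCA, an AP-1-like motif, at -74 to -68. ISRE-like matches occurred in 2.98% of all promoters and AP-1-like matches in 6.75%. Cxcl14 held an ISRE-like match at -172 to -163 and no kB-like match. In Cxcl9 neither of the capitalised motifs occurred in this window. The window did hold gggttttcc and gggatttcc, which have the ends of the kB-like motif with fewer bases between them. Such shorter forms were not searched for in any gene. The TATAAA letters of a TATA box, present in 12.4% of promoters, lay in Cxcl9 at -195 to -190. Cxcl3 held the same TATAAA letters at -30 to -25. These are matches of letters, and binding was not measured.

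Cxcl2 encodes a ligand that activated macrophages release early to recruit neutrophils. It stood at 563 and 497 TPM in libraries 1 and 2, from 14056 and 12588 expected counts. Its mean of 529.7 ± 46.7 TPM (SD, n = 2) was at percentile 99.6 of the detected protein-coding genes, and it ranked 50th among them in library 1 and 45th in library 2. Cxcl2 alone supplied 93.4% of the ELR sum in library 1 and 89.7% in library 2.

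Cxcl1, a ligand of the same receptor, stood at 39.5 and 56.9 TPM in libraries 1 and 2, from 931 and 1348 expected counts. Its mean was 48.2 ± 12.3 TPM (SD, n = 2), percentile 91.2. It was at percentile 87.3 in library 1 and 93.8 in library 2. In both libraries Cxcl1 lay below Cxcl2 by more than the spread between libraries.

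Cxcl3, a further ligand of that receptor, had 0.43 and 0.12 TPM in libraries 1 and 2, from 13.0 and 3 expected counts. Library 1 alone reached the minimum for detection. Cxcl5, an ELR ligand known mainly from epithelial and stromal cells, was listed at 0 TPM and 0 counts in both libraries. A count of 0 allows up to 3 counts, or a CPM (counts scaled to library size) of 0.152 in library 1 and 0.174 in library 2, for counting error only. The means of Cxcl2, Cxcl1 and Cxcl3 were 529.7, 48.2 and 0.275 TPM. Whether the 11 bases they share upstream bear on these levels was not tested.

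Cxcl10, the main interferon-induced member, stood at 592 and 409 TPM in libraries 1 and 2, from 13038 and 9534 expected counts. Its mean was 501 ± 129 TPM (SD, n = 2), percentile 99.5, and it ranked 47th in library 1 and 58th in library 2. It supplied 98.6% of the interferon-induced sum in library 1 and 97.7% in library 2. Cxcl10 was above Cxcl2 in library 1 and below it in library 2, so the order of the 2 leading genes was not resolved.

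Cxcl11, another Cxcr3 ligand, stood at 8.11 and 6.09 TPM in libraries 1 and 2, from 260 and 199 expected counts. Its mean of 7.10 ± 1.43 TPM (SD, n = 2) was near the middle of detected protein-coding genes, at percentile 52.8. C57BL/6 mice are known to carry a frameshift in Cxcl11 that prevents a functional protein, and the annotation types the gene as a polymorphic pseudogene. The RNA was measured; the protein was not.

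Cxcl9, classically an interferon-gamma target, stood at 0.38 and 3.53 TPM in libraries 1 and 2, from 22 and 146 expected counts. Its mean of 1.96 TPM had an SD of 2.23 (n = 2), larger than the mean itself. Of the 6 detected members it was the lowest and the one whose libraries lay farthest apart.

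Cxcl16, the membrane-bound member, stood at 117 and 79.3 TPM in libraries 1 and 2, from 5244 and 3849 expected counts. Its mean was 97.9 ± 26.3 TPM (SD, n = 2), percentile 96.0, behind Cxcl2 and Cxcl10 in the family. Cxcl14 had 0.04 TPM from 1 count in library 1 and was listed at 0 in library 2.

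**Figure D1:**
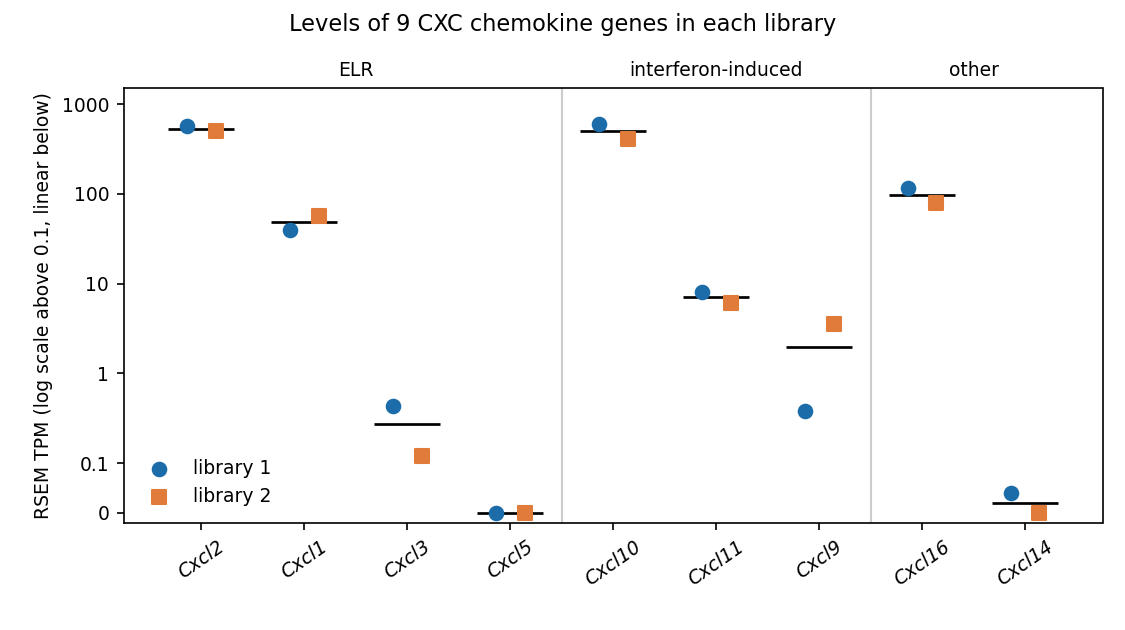
RSEM TPM of the 9 genes in library 1 (circles) and library 2 (squares), with the mean as a line, on an axis that is logarithmic above 0.1 and linear below. Cxcl2 and Cxcl10 lie near 500 TPM, Cxcl16 and Cxcl1 follow, and Cxcl3, Cxcl5 and Cxcl14 lie below 1 TPM.

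By mean TPM the order was Cxcl2, Cxcl10, Cxcl16, Cxcl1, Cxcl11, Cxcl9, Cxcl3, Cxcl14 and Cxcl5. The values of neighbouring genes overlapped between Cxcl2 and Cxcl10, between Cxcl9 and Cxcl3, and between Cxcl14 and Cxcl5. Between the other neighbours they did not overlap, with 2 libraries each. For Cxcl3 over Cxcl14 this rested on only 13.0 and 3 against 1 and 0 expected counts in libraries 1 and 2. By kallisto Cxcl5 lay above Cxcl3 in both libraries, so the order of the undetected genes was not resolved. The step below Cxcl10 was 2.33 on the log2(TPM + 1) scale in library 1 and 2.35 in library 2, and the step below Cxcl1 was 2.15 and 3.03.

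The classes were close in sum, and the median put a different class higher in each library. Summed TPM of the ELR genes was 603 in library 1 and 554 in library 2, against 600.2 and 419 for the interferon-induced genes, so the ELR sum was 1.00 times the interferon-induced sum in library 1 and 1.32 times in library 2. The difference in median log2(TPM + 1), ELR minus interferon-induced, was -0.26 in library 1 and 0.18 in library 2, with a mean of -0.04 ± 0.31 (SD, n = 2). Over the detected genes alone, Cxcl1 and Cxcl2 against Cxcl9, Cxcl10 and Cxcl11, it was 4.32, since the undetected Cxcl3 and Cxcl5 then left the ELR median, and with a pseudocount of 0.1 over all 7 genes it was -0.82. Each class held 1 gene near 500 TPM and others far lower, so the ELR median rested on Cxcl1 and Cxcl3 and the interferon-induced median on Cxcl11.

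Library 1 was set against library 2 for each detected gene as log2((TPM + 1) in library 1 / (TPM + 1) in library 2), centred on the median of the 13757 detected genes, which was 0.27 before centring. Cxcl2 (-0.09), Cxcl11 (0.09), Cxcl10 (0.26) and Cxcl16 (0.28) lay near 0. Without centring Cxcl2 turned to 0.18, and with kallisto, a second quantification that the authors deposited, Cxcl10 turned to -0.11, Cxcl11 to -0.15 and Cxcl16 to -0.10. No direction is therefore given for these 4 genes. Of the 5 members whose mean count reached 100, 0 differed by over 2-fold, where 2.26% of all such genes did. With the minimum lowered to a mean of 10 counts, 1 of 6 members did, Cxcl9, where 2.98% of all genes did.

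Cxcl1 and Cxcl9 were higher in library 2. Cxcl1 gave -0.79, and by counts with TMM factors it was 1.77-fold higher in library 2 (95% exact counting interval 1.63 to 1.93), while kallisto TPM gave -1.14. Cxcl9 gave -1.99, with 8.12-fold higher counts in library 2 (95% exact counting interval 5.16 to 13.4) and -1.29 by kallisto TPM; without a pseudocount the TPM ratio was -3.59. Its mean count of 84.0 lay below the minimum of 100; among genes with a mean count within 2-fold of it, 3.71% were over 2-fold apart, and 1.25% in the direction of library 2. These intervals cover counting error only and compare 2 libraries, not conditions. In a bulk sample, fewer cells that express a gene and less RNA per cell cannot be told apart, and RNA input and replicate number cannot be told apart either.

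**Figure D2:**
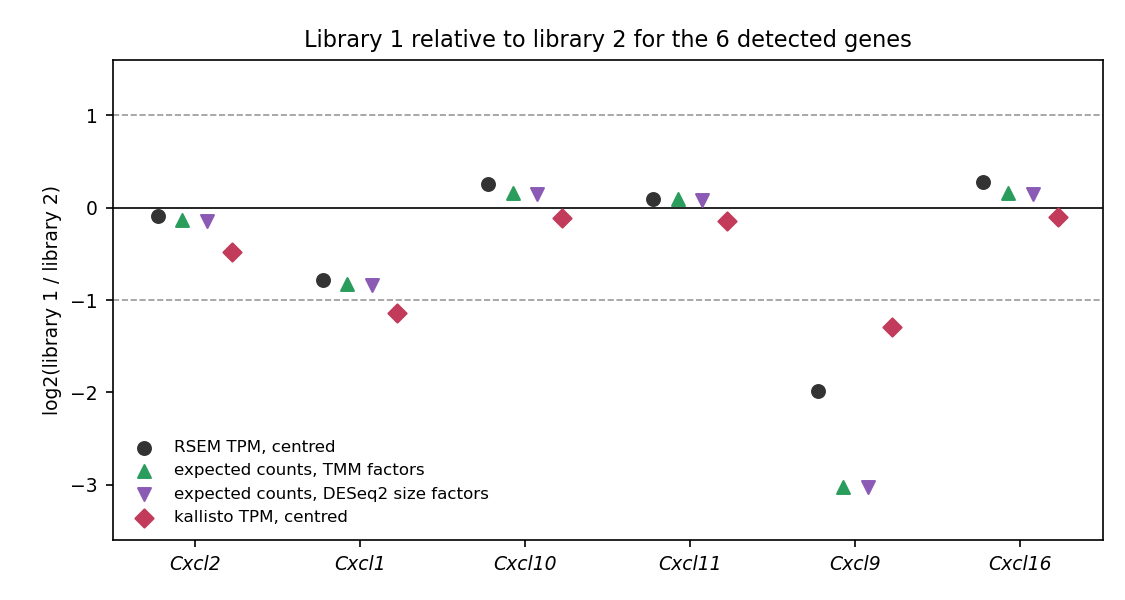
The log2 ratio of library 1 over library 2 for the 6 detected genes under RSEM TPM, expected counts with TMM or DESeq2 factors, and kallisto TPM; dashed lines mark 2-fold. Cxcl9 lies below -1 under all 4 measures, Cxcl1 only under kallisto, and the remaining genes stay within 1 of 0.

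Of the 4 most abundant members, Cxcl2 and Cxcl1 had a larger share of their TPM in transcripts annotated as retained introns than the median gene. Cxcl10 had a share near it and Cxcl16 a smaller one by RSEM. Such transcripts cannot be told apart here from RNA not yet spliced. For Cxcl2 they held 42.8% of the gene's TPM in library 1 and 51.3% in library 2, at percentile 84.5 among 5058 protein-coding genes that have such a transcript, whose median was 24.0%. For Cxcl1 the share was 38.1% in library 1 and 34.4% in library 2, percentile 71.2. For Cxcl10 it was 25.9% in library 1 and 24.0% in library 2, percentile 52.4, close to that median. The 344-base Cxcl10-203, which reads through none of the introns of the spliced form in full, held 8.54% and 6.26% of the gene's TPM. Cxcl10-204, which reads through all of them, held 17.4% in library 1 and 17.8% in library 2.

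Among these were single transcripts of Cxcl2, Cxcl1 and Cxcl10 that read through all 3 introns of the spliced form. Cxcl2-203 stood at 176 and 173 TPM in libraries 1 and 2, which was 31.2% and 34.9% of Cxcl2. The 397-base Cxcl2-204 held a further 11.6% and 16.4%, from 271 and 328 expected counts. TPM is scaled for length, so a short transcript with few counts can hold a large share. Cxcl1-202 held 38.1% and 34.4% of Cxcl1, above Cxcl2-203 in library 1 and near it in library 2. The larger retained-intron share of Cxcl2 than of Cxcl1 thus rested largely on Cxcl2-204. The spliced Cxcl2-201 stood at 289 and 232 TPM in libraries 1 and 2. Cxcl10-204, the unspliced form of Cxcl10, stood at 103 and 72.7 TPM in libraries 1 and 2, beside 428 and 309 TPM for the spliced Cxcl10-201. For Cxcl1-202 the levels were 15.1 and 19.6 TPM in libraries 1 and 2.

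kallisto placed the retained-intron share at 46.2% in library 1 and 52.9% in library 2 for Cxcl2, at 37.7% and 34.1% for Cxcl1 and at 29.2% and 26.7% for Cxcl10, a like order of the 3 genes. For Cxcl16 the programs differed: RSEM gave 20.3% in library 1 and 7.96% in library 2, both below the median gene at 24.0%, and kallisto 42.8% and 28.3%, with a median gene at 29.9% by kallisto. Cxcl16 also had a transcript annotated for nonsense-mediated decay, with 12.9% of its TPM in library 1 and 17.4% in library 2 by RSEM. For Cxcl9 the short retained-intron transcript held 0% in library 1 and 33.2% in library 2, the second from 4.01 expected counts.

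Cxcl11 had a pair of annotated transcripts that differ in how they treat 2 bases, chr5:92363177-92363178 of mm10, inside the gene. Cxcl11-201, annotated as protein-coding, skips them as if they were an intron, and Cxcl11-202, annotated as a polymorphic pseudogene, reads through them. Of the TPM of Cxcl11, Cxcl11-201 held 94.6% in library 1 and 96.2% in library 2 by RSEM, and 81.0% and 80.0% by kallisto. The transcripts also differ in length, 1581 bases for Cxcl11-201 and 3794 for Cxcl11-202, so the shares do not rest on the 2 bases alone.

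**Figure D3:**
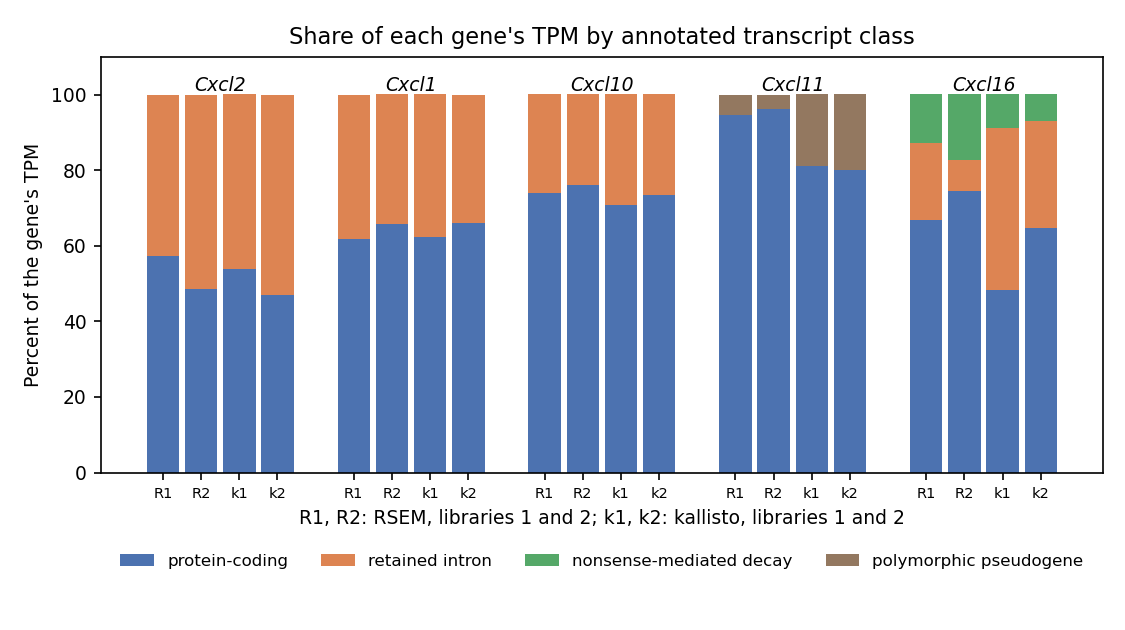
Percent of each gene's TPM by annotated transcript class for Cxcl2, Cxcl1, Cxcl10, Cxcl11 and Cxcl16, by RSEM (R1, R2) and kallisto (k1, k2) in libraries 1 and 2. By TPM the retained-intron share is largest in Cxcl2, with 42.8% in library 1 and 51.3% in library 2 by RSEM. Of the TPM of Cxcl2, the 397-base Cxcl2-204 supplies 11.6% and 16.4% in those libraries. The programs differ most for Cxcl16 and Cxcl11.

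The 3′ untranslated regions (UTRs) of the ELR genes carry AU-rich elements, repeats of AUUUA that destabilise many cytokine mRNAs once bound by proteins such as Zfp36. A stretch from each of 4 genes is shown in DNA letters from mm10, with every ATTTA in capitals, chosen as the stretch of 29 bases with the most copies, to show how closely the copies lie in each gene.
Cxcl2 3′ UTR site, chr5:90905328-90905356, plus strand: ATTTATTTAtctatgtATTTATTTATTTA
Cxcl1 3′ UTR site, chr5:90892607-90892635, plus strand: tcctATTTATTTAtgtATTTATTTAttcc
Cxcl3 3′ UTR site, chr5:90787636-90787664, plus strand: gcatcttATTTAatgtttATTTAatatca
Cxcl10 3′ UTR site, chr5:92346937-92346965, minus strand: gtaagactacaaATTTAagtttgtaagga
The whole 3′ UTR held 11 copies in Cxcl2, 7 in Cxcl1, 5 in Cxcl3 and 5 in Cxcl5, against 3 in Cxcl9, 2 in Cxcl10, 1 in Cxcl11, 2 in Cxcl16 and 0 in Cxcl14. The median over 10850 detected protein-coding genes was 1. Of detected genes with a 3′ UTR of similar length (within 1.5-fold), 1 of 2629, Cxcl2 itself, had as many as Cxcl2. The share with as many was 0.464% for Cxcl1, 2.88% for Cxcl3 and 10.7% for Cxcl5, and 36.1% for Cxcl10. The nonamer TTATTTATT occurred 4 times in Cxcl2, 2 times in Cxcl1 and once in Cxcl3, and in none of the other 6 members. It occurred in 7.51% of all detected genes.

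**Figure D4:**
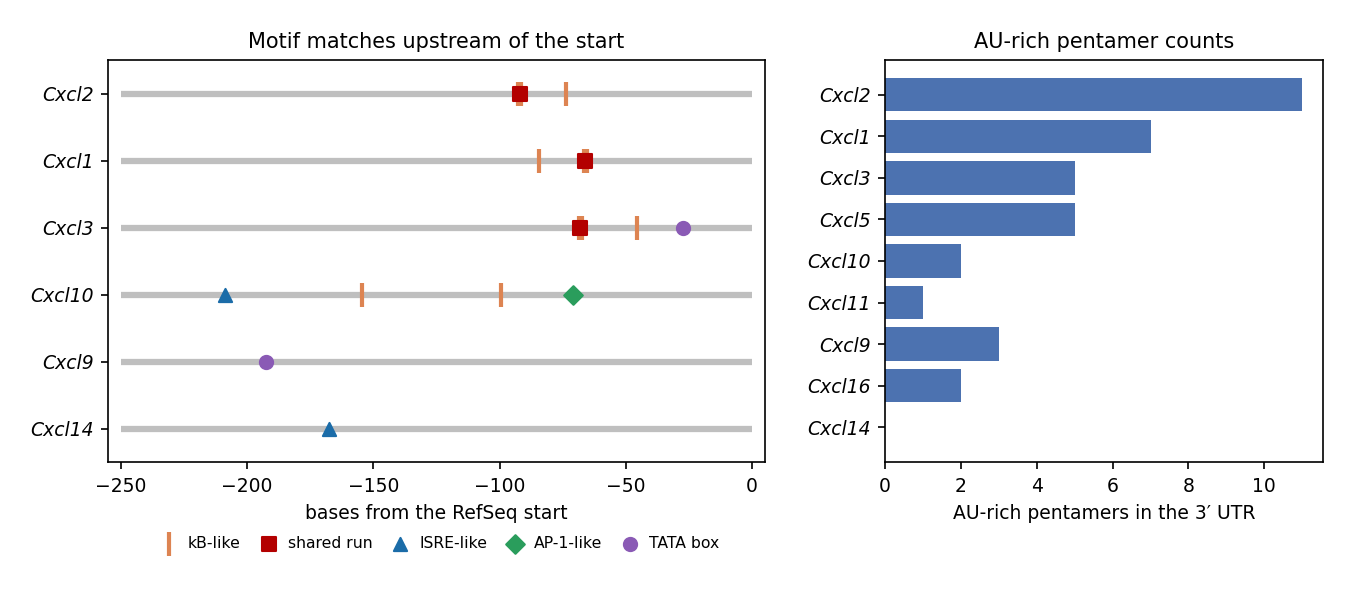
Left, midpoints of matches to the shared run and the other motifs in the 250 bases before the RefSeq start of the 6 genes with a promoter. Right, the number of AUUUA pentamers in the 3′ UTR of all 9 genes; the 4 ELR genes have 5 to 11 and the others 0 to 3.

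All 7 listed genes of AU-rich mRNA decay were detected, where 49.9% of all protein-coding genes were. Zfp36, which promotes decay, led with 409 and 416 TPM in libraries 1 and 2, and its mean of 412 TPM was below that of Cxcl10 by less than the SD of Cxcl10. Zfp36l1, a close relative, averaged 54.9 ± 11.5 TPM and Hnrnpd, an AU-rich RNA binder, 40.1 ± 6.30 TPM. The lowest was Elavl1, which stabilises such mRNAs, at 11.7 ± 3.41 TPM (SD, n = 2 each).

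All listed genes of both upstream arms were detected, where 49.9% of all protein-coding genes were. The NF-kB list of 8 was led by the inhibitor Nfkbia at 384 ± 151 TPM, the nuclear cofactor Nfkbiz at 293 ± 63.1 TPM and the subunit gene Nfkb1 at 66.7 ± 21.6 TPM (SD, n = 2 each), with Bcl3 lowest at 16.4 ± 7.42 TPM. The interferon list of 12 was led by the transcription factors Irf1 at 459 ± 225 TPM and Irf7 at 440.3 ± 169 TPM (SD, n = 2 each). Ifnb1, the gene of interferon beta, was the lowest of that list, with 11.0 and 5.60 TPM in libraries 1 and 2. Irf1 was thus far above Cxcl9 in both libraries, and at a level of the order of Cxcl10.

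By RSEM the listed receptors of CXC ligands lay below the median detected protein-coding gene, the highest at percentile 45.3. Of 8 receptor genes 3 were detected by RSEM, where 49.9% of all protein-coding genes were. Cxcr4, the receptor of Cxcl12, stood at 5.39 ± 0.481 TPM and Cxcr6, the receptor of Cxcl16, at 2.87 ± 0.354 TPM. Cxcr3 stood at 0.930 ± 0.0707 TPM (SD, n = 2 each). Cxcr2, the receptor of the ELR ligands, had 0 expected counts in library 1 and 1 in library 2 by RSEM, but 0.712 and 1.98 TPM in those libraries by kallisto, which put Cxcr3 at 0.227 and 0.458 TPM. The absence of Cxcr2 RNA is therefore not shown. The protease Adam17 stood at 91.3 ± 34.7 TPM and Adam10 at 18.2 ± 1.33 TPM (SD, n = 2 each). Of 6 other CXC ligand genes only Pf4, a ligand stored in platelets and also made by macrophages, was detected, at 17.3 ± 4.87 TPM; Cxcl12, Cxcl13, Cxcl15 and Cxcl17 were at 0 and Ppbp was at 0.210 TPM in each library.

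The genes lay in 4 places. The 4 ELR genes spanned 146.6 kb, all on the plus strand: Cxcl5 at chr5:90759360-90761624, Cxcl3 at chr5:90786103-90789600, Cxcl1 at chr5:90891241-90893115 and Cxcl2 at chr5:90903871-90905938 (mm10). The 3 interferon-induced genes spanned 44.1 kb on the minus strand of the same chromosome: Cxcl9 at chr5:92321347-92328079, Cxcl10 at chr5:92346638-92348889 and Cxcl11 at chr5:92359544-92365485. Cxcl16 lay at chr11:70453983-70459984 and Cxcl14 at chr13:56288643-56296551, both on the minus strand.

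High levels did not extend over either cluster. Over genes of all types, 13757 of the 55536 measured were detected. Within 100 kb of the ELR genes 2 of 10 other annotated genes of any type were detected, Pf4 and the metabolic gene Mthfd2l at 2.33 ± 0.615 TPM. Around the interferon-induced genes 5 of 11 were detected, from Scarb2, a lysosomal membrane protein gene, at 30.8 ± 2.74 TPM down to Sdad1 at 2.80 ± 0.948 TPM (SD, n = 2 each). Cxcl10 itself lay between Cxcl9 and Cxcl11, which averaged 1.96 and 7.10 TPM.

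Some of these levels share their place with another gene. Art3, on the plus strand, runs across Cxcl10 and Cxcl11 and stood at 8.17 ± 2.33 TPM (SD, n = 2), above the 7.10 TPM of Cxcl11 and far below Cxcl10. Zmynd15 overlaps the start of Cxcl16 by 552 bases on the opposite strand and stood at 8.07 ± 4.76 TPM (SD, n = 2). Whether counting used the strand is not given in the sources used here, so the level of Cxcl11 is uncertain.

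**Figure D5:**
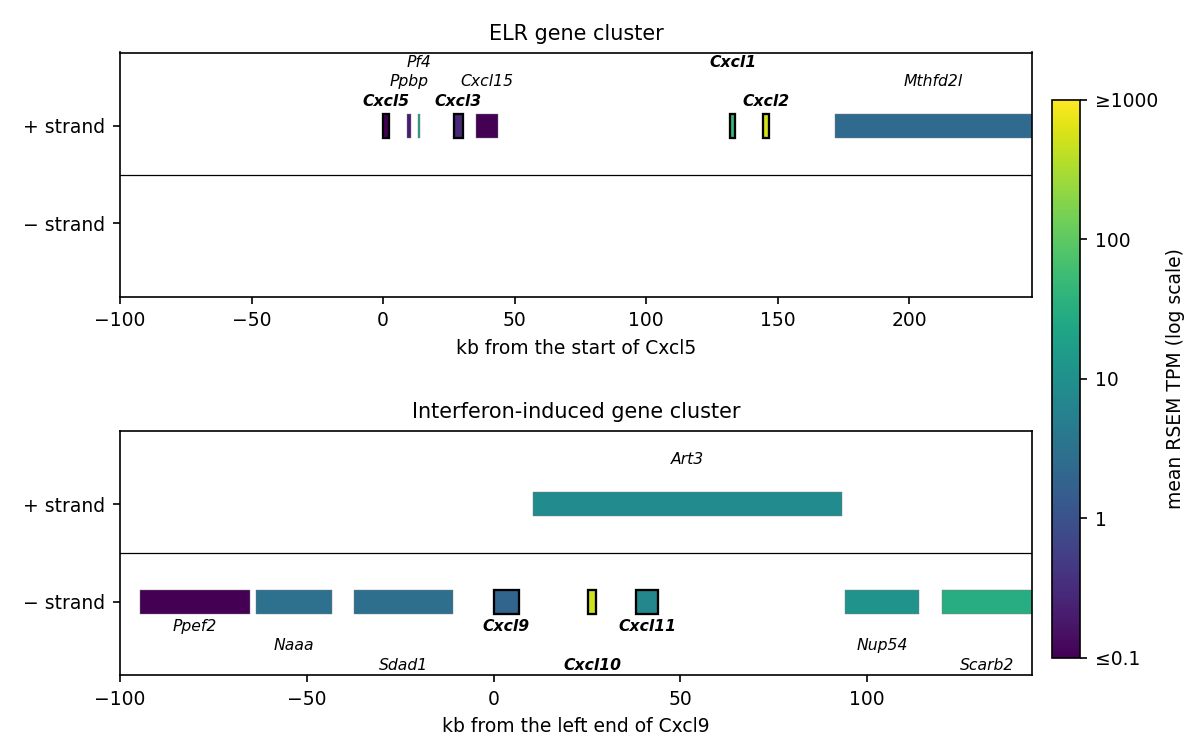
Protein-coding genes and Cxcl11 around the ELR cluster (top) and the interferon-induced cluster (bottom), drawn to scale by strand and coloured by mean RSEM TPM on a log scale, with the chemokine genes outlined in black. Cxcl2 and Cxcl10 are the brightest of each map, beside neighbours at about 30 TPM or less other than Cxcl1.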

How the data were processed

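Per library, RSEM-style gene and transcript tables and a kallisto-style transcript table were used, on mm10 and GENCODE M21 per the notes beside the files. Expected counts and TPM were used as the authors deposited them, and kallisto values were summed over the transcripts of a gene. The authors also deposited TPM credibility bounds, a precision score of no stated level, which are not printed. For the aligner, the program versions and the strand setting, the sources used here give nothing.

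Symbols were joined to the tables by gene identifier. TMM factors (edgeR 4.0.16) and size factors (DESeq2 1.42.0) were computed from rounded expected counts in R 4.3.3, and the rest in Python 3.11.15 with pandas 2.3.3. The ratio script was tested on simulated data. A pseudocount of 1 TPM was used for log2 values. Counting intervals are exact binomial (Clopper-Pearson) 95% intervals on the split of the counts between the libraries, and cover counting error only, since the reads carry no molecular identifiers. With 1 group no test was possible and no p-value was computed.

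Promoters were RefSeq sequences, and both strands were searched. UTRs came from the GENCODE M21 transcripts of the main coding form, and similar length means within 1.5-fold. The members, gene lists, motifs and thresholds were chosen with earlier results of these data known, and the motifs and UTR stretches with the sequences in view. All 9 members were described; of each context list the 3 highest members and the lowest detected one were named, and Adam17 and Adam10 for shedding of Cxcl16. A gene of these lists is not reported here. The genes within 2-fold of the mean count of Cxcl9 were taken as its background after its values were seen.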

Additional observations from a re-analysis of the deposited data

Results flagged for a closer look

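Cxcl5 was listed at 0 in both libraries by RSEM, but the kallisto tables, which served only as an alternative to the RSEM levels, held 28.0 estimated counts for it in library 1 and 30.0 in library 2, above the 3 counts that a count of 0 allows. All of them were assigned to the spliced transcript Cxcl5-201, at 0.197 and 0.392 TPM in libraries 1 and 2. There were no control samples to set these values against.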

How the results depend on the processing

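No paired analysis was possible because both libraries belonged to 1 group and no groups were compared. The summed level of the 9 genes, 1186 TPM on average and 1052 to 1319.5 TPM with either library left out, was 436 TPM with kallisto and 4782 TPM when TPM was rescaled over protein-coding genes outside the mitochondrial genome. TPM levels are therefore relative to what each table counts. The difference in median log2(TPM + 1) between ELR and interferon-induced genes, -0.04, was -0.26 to 0.18 with either library left out, -0.82 with a pseudocount of 0.1, -0.52 by CPM and 4.32 over detected members. The number of detected members over 2-fold apart was 1 (Cxcl9), and 2 with kallisto, which added Cxcl1. The share of all genes over 2-fold apart, 2.26%, was taken where the mean reached 100 counts, which Cxcl9 at 84.0 did not reach. That share was 1.45% with kallisto and 5.20% without centring. With the minimum lowered to 10 counts, which Cxcl9 passed, it was 2.98%. No kallisto share is given at the lower minimum, so the 2 members by kallisto have no matching background here. The share of a gene's TPM in its main transcript was taken as the median over detected members, averaged over the libraries. It was 70.1%, 69.5% to 70.7% with either library left out, and 65.5% with kallisto. The causes were not tested. Detected members numbered 7 at a minimum of 1 count and 5 at 50. Depth limits Cxcl5, Cxcl14, Cxcl3 and Cxcl9 most, since they rest on 0 to 146 expected counts in a library.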

Other observations

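The kallisto and RSEM tables counted the 9 genes differently. The median detected protein-coding gene had 1.44 times as many kallisto as RSEM counts. Cxcl10 (1.19 times), Cxcl2 (1.20 times) and Cxcl1 (1.27 times) lay below that median. Cxcl16 (1.51 times), Cxcl9 (2.11 times), Cxcl11 (2.31 times) and Cxcl3 (4.80 times) lay above it. For Cxcl3 kallisto estimated 28.6 counts in library 1 and 48.3 in library 2, of which 62.9% and 91.6% of the TPM fell to Cxcl3-202, the transcript that reads through all 3 introns.

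Cxcl15, an ELR ligand known from mouse lung that lies next to Cxcl3, showed a like split to Cxcl5, with 0 counts by RSEM and 81.4 estimated counts in library 1 and 102 in library 2 by kallisto. Around Cxcl16, 6 of 16 other annotated genes were detected, led by Arrb2, which encodes a beta-arrestin that acts on chemokine receptors, at 146 ± 64.6 TPM (SD, n = 2). Around Cxcl14, 0 of 6 were detected. These neighbours were genes of any type, and 13757 of all 55536 genes were detected. Over the 250 bases before the start, the aligned identity of the ELR promoters was 58.7% for Cxcl3 with Cxcl2, 52.7% for Cxcl3 with Cxcl1 and 52.0% for Cxcl1 with Cxcl2, beside 44.9% to 51.5% for pairs with a promoter of another member.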
